A study of Mus musculus with 17 samples.

Results

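Splicing factors and heterogeneous nuclear ribonucleoproteins (hnRNPs) are the proteins that bind an RNA as it is transcribed and decide where it is cut and joined. The genes described here were found by name in the array files: hnRNP genes, SR protein genes under their current (Srsf) or older (Sfrs) names, the SF3A and SF3B subunits, and Pnn, Srek1, Fip1l1, Tra2a, Tra2b, Rbm39 and Luc7l. 54 genes with 119 probes carried these names. 108 of the probes, for 52 genes, had a sample signal well above background on at least 8 of 17 arrays and were tested, among 25518 tested probes of 18123 gene names in all. Pnn, Srek1, Hnrnpa2b1 and Fip1l1 were known from an earlier look at the same arrays for their difference between the diets, and the names were chosen with that result in view. The differences of these genes are therefore given as a description, without a test of their own.

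Both groups were adult male mice of the strain C57BL/6J, and the tissue was epididymal white fat, which lies next to the testis. For 13 weeks they were fed a purified diet rich in fat, which gave 30% of the energy. The groups differed in the carbohydrate of this diet, whose glycemic index, the strength with which it raises blood glucose, was low in the LGI group (8 mice) and high in the HGI group (9 mice). There was no group on another fat content, and the labels name no transgene or deletion. Each array compared the RNA of 1 mouse, in Cy5, with a single pool of Cy3-labelled RNA from the mice of both diets. A value is the log2 ratio of a mouse to that pool. Differences are given as HGI minus LGI on the log2 scale. The labels number the samples as replicates, so the spread is that between these samples, and precision is limited by how many arrays there are.

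In a splicing reaction the U1 particle marks the start of an intron, and the U2 particle, which holds the SF3A and SF3B complexes, settles on the branch point near its end. SR proteins bind exonic enhancers through RNA recognition motifs and attract these particles through stretches rich in arginine and serine, whereas many hnRNPs cover silencers and hold the machinery off. Most of these proteins act at many transcripts at once, and several bind and restrain their own messages. Among their known targets is the insulin receptor, whose isoforms depend on the balance of SR proteins and hnRNPs.

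Across the family most probes lay slightly lower in the mice on the high glycemic index diet. 80 of the 108 probes (74.1%) were lower in HGI, where 49.1% of all tested probes were. The family's probes were also brighter, with a median log2 intensity of 8.14 against 7.22, and the shares over all tested probes were not matched for this. The median difference was -0.06, against 0.00 over all tested probes, and single probes ran from -0.42 to 0.13. 32 of the 108 probes (29.6%) differed by more than 0.1 downward and 1 by more than 0.1 upward, where 14.2% and 16.6% of all tested probes did. An unadjusted p under 0.05 in limma went with a lower level in 15 of the 108 probes, where 4.02% of all tested probes had one, and with a higher level in 0, where 3.62% of all tested probes had one. None of the 108 passed an adjusted p of 0.05: the smallest adjusted p in limma was 0.559, and none of the 25518 tested probes passed either, with a smallest adjusted p of 0.189. In no probe of the family did the HGI mice lie wholly below the LGI mice, which happened in 0.0235% of all tested probes, or wholly above them, which happened in 0.00784%.

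**Figure D1:**
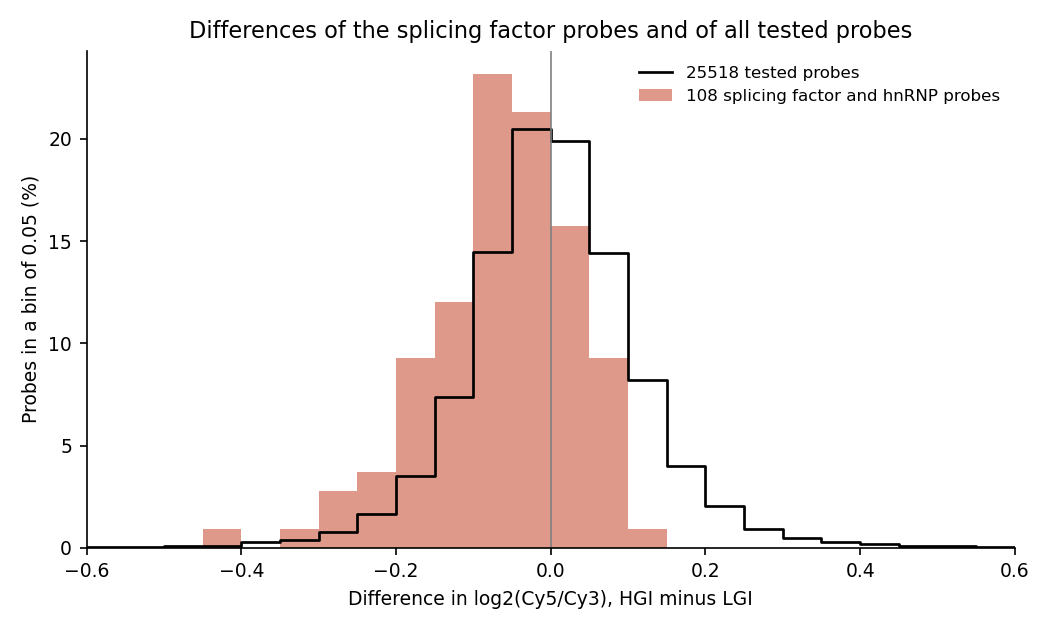
Share of probes (%) in bins of 0.05 of the difference in log2(Cy5/Cy3), HGI minus LGI, for the 108 splicing factor and hnRNP probes (bars) and for all 25518 tested probes (line). The bars are shifted to the left of the line, with a median of -0.06 against 0.00, and 1 probe lies above 0.1.

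HGI 9 and HGI 10 stood apart from the other mice. Over all probes the correlation between them was 0.79, and that of either with another mouse ran from -0.04 to 0.15. Among the other 15 arrays correlations ran from 0.34 to 0.81. The mean log2 ratio of 7 seminal vesicle secretion genes was 1.59 in HGI 9 and 1.58 in HGI 10. It was -4.28 to -3.98 in the other HGI mice and -4.30 to -3.93 in the LGI mice. Without these mice 85 of the 108 probes were lower, where 50% of all tested probes were, the median difference stayed at -0.06, and 12 probes were lower with an unadjusted p under 0.05, where 2.75% of all tested probes were. 0 probes were higher with an unadjusted p under 0.05 without them, where 4.71% of all tested probes were, and the smallest adjusted p of the family in limma was 0.515. The downward shift of the splicing factors was as large without these mice as with them.

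The choice of genes by their own values bears on the count. Leaving out Hnrnpa2b1 and the 7 genes that were named singly, 66 of 90 probes (73.3%) in 44 genes were lower, against 49.1% of all tested probes, and the median difference was -0.05. 11 of the 90 (12.2%) were lower with an unadjusted p under 0.05, against 4.02% of all tested probes, and 6 (6.67%, against 2.75%) without HGI 9 and HGI 10. Among the arrays, the median over the 108 probes ran from -0.08 to 0.09 in the LGI mice and from -0.08 to 0.02 in the HGI mice. LGI 5 had the lowest median of all mice, just below HGI 2 (both -0.08). LGI 7 lay among the HGI mice and HGI 9 among the LGI mice, so the groups overlapped. LGI 9 had the highest median of all mice at 0.09, and it also had the highest level of the cilia markers, 0.97 against 0.31 or less in every other mouse, and the lowest adipocyte marker level of the LGI mice, -0.25. Without LGI 9, 73 of the 108 probes (67.6%) were lower, where 48.4% of all tested probes were, the median difference was -0.04, and 12 probes were lower with an unadjusted p under 0.05, where 3.71% of all tested probes were. What these marker levels contribute to the shift was not tested.

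**Figure D2:**
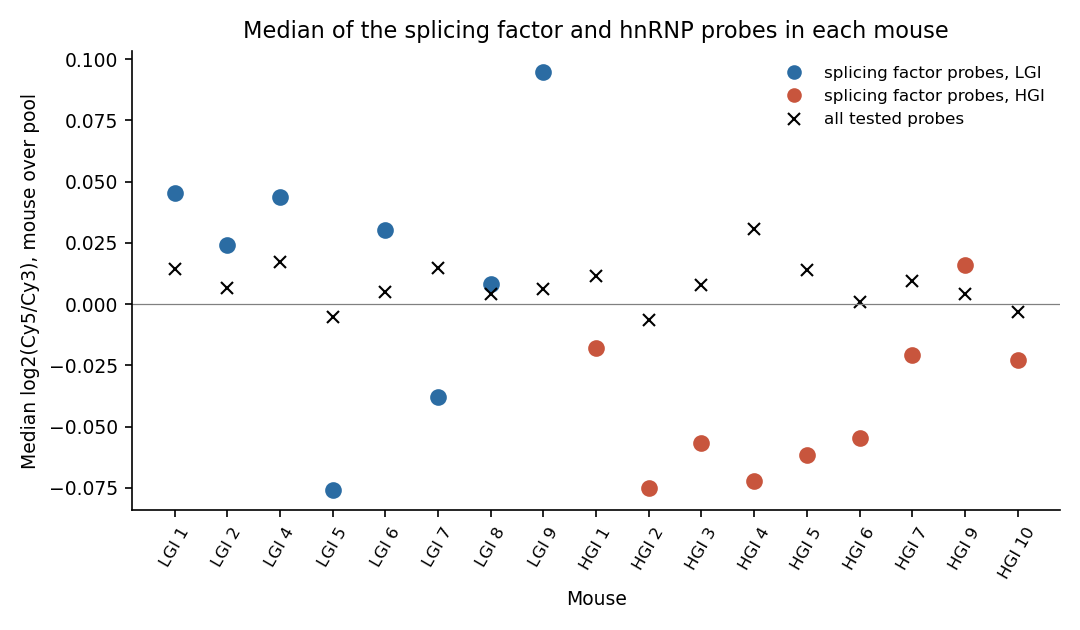
Median log2(Cy5/Cy3) of the 108 splicing factor and hnRNP probes in each of the 8 LGI and 9 HGI mice (circles), with the median of all tested probes (crosses). 6 of 8 LGI mice lie above 0 and 8 of 9 HGI mice below it, and the groups overlap through LGI 5, LGI 7 and HGI 9.

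Promoter sequence was looked at because so many of these genes leaned the same way. RefSeq windows (GRCm38.p6) from 250 bases before to 50 after the start site were at hand for 47 of the 52 genes. The names Hnrnpa1l2-ps, Hnrnpll, Luc7l, Sf3b4 and Sf3b5 found no window. The letters CCGGAAG, the core bound by ETS-family factors, were searched on both strands and stood in a window of 16 of the 47 genes (34.0%), against 9.93% of 27025 genes in the table. Pnn, Srek1, Srsf11 and Hnrnpd are 4 of these genes, picked because they also hold some of the lowest probes. The 250 bases before the start site of these 4 are printed 5′ to 3′ on the gene's strand because they hold the match, with CCGGAAG or its reverse complement CTTCCGG in capitals:
Pnn, chr12:59066669-59066918, plus strand: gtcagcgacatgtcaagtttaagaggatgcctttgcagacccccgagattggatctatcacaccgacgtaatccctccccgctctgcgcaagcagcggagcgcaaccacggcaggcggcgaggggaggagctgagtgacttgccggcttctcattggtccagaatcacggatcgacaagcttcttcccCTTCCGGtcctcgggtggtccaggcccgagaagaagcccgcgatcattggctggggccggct
Srek1, chr13:103774609-103774858, minus strand: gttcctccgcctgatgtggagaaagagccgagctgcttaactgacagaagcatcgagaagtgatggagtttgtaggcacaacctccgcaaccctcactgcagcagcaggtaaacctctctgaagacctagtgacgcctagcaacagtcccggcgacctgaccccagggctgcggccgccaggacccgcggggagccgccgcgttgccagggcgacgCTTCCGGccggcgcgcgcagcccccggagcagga
Srsf11, chr3:158031749-158031998, minus strand: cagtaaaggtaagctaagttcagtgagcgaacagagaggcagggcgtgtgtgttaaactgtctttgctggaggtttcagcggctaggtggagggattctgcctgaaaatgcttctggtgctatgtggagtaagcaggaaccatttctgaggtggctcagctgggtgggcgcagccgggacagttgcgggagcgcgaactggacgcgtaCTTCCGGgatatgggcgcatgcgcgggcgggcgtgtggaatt
Hnrnpd, chr5:99978939-99979188, minus strand: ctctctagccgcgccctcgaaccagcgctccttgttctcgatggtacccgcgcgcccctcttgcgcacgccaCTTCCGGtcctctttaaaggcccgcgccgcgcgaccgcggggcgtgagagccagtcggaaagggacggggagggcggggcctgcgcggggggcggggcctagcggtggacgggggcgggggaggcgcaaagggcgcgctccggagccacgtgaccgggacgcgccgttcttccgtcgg

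In these sequences the match begins 62 bases before the start site in Pnn, 34 in Srek1, 42 in Srsf11 and 178 in Hnrnpd, each time as the reverse complement. Srsf11 has 2 windows and the match is in both. The longer letters CCGGAAGT, which contain the first, stood in windows of 9 of 47 genes, against 4.31% of all genes. Hnrnpd, Hnrnpf, Sf3a1, Sf3a3, Sf3b2, Sfswap, Srsf11, Srsf4 and Srsf5 held them. The Sp1-type letters GGGCGG stood in 35 of 47 genes against 38.2% of all, CCAAT in 24 against 41.1%, and TATAAA in 6 against 15.7%, also on both strands. The windows of the family had a median GC content of 63.8% and 27 CpG pairs, against 52.7% and 7 over all windows, so letters rich in G and C are met more often in them. Among the 14 genes with a window and a lower probe with an unadjusted p under 0.05, 6 held CCGGAAG, where 16 of all 47 did. Fip1l1 (-0.28) and Hnrnpa2b1 (-0.29 in its lowest probe) did not hold it, whereas Sf3b2 (0.03) and Sf3b6 (0.01) did. A match is a description of the sequence and says nothing of binding in these mice.

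Pnn had the lowest difference of the family. Pinin is a protein of nuclear speckles that joins the complex left on exon junctions and was first known from the desmosome. Its only tested probe, A_51_P121793, lay at -0.07, 0.19 and 0.94 (lowest, median and highest) in the LGI mice and at -0.31, -0.20 and 0.03 in the HGI mice. Each of the 9 HGI mice was lower than the LGI median, LGI 1 was far above every other mouse, and LGI 5 and LGI 7 reached into the HGI range. The means were 0.25 ± 0.32 (SD, n = 8) and -0.18 ± 0.11 (SD, n = 9), a difference of -0.42 ± 0.10 (SE), or 25.4% lower on the linear scale. It was -0.43 without HGI 9 and HGI 10 and -0.32 without LGI 1. With Cy5 intensities alone it was -0.15, and in the authors' deposited log2 values it was -0.21.

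Srek1 encodes an SR-related protein that binds other SR proteins and changes their activity. Probe A_52_P684857, the brightest of 4, lay at -0.36, -0.01 and 0.27 in the LGI mice and at -0.61, -0.34 and -0.21 in the HGI mice. The LGI median lay above every HGI mouse, and LGI 7 and LGI 8 lay within the HGI range. The difference was -0.34 ± 0.09 (SE), or 21.2% lower, and -0.33 without HGI 9 and HGI 10, but -0.15 in the authors' deposited values. The other probes of Srek1 differed by -0.06, -0.05 and -0.01, and their ranges in the groups overlapped.

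Fip1l1 encodes a subunit of the factor that cleaves and polyadenylates the end of a message, so it is a 3' end factor and no splicing factor in the strict sense. Probe A_52_P83303 lay at -0.01, 0.30 and 0.46 in the LGI mice and at -0.20, 0.00 and 0.23 in the HGI mice. LGI 7 and LGI 9 were the low LGI mice, HGI 7 was the high HGI mouse, and HGI 9 and HGI 10 were the lowest of all. The difference was -0.28 ± 0.07 (SE), -0.23 without HGI 9 and HGI 10, and -0.15 in the authors' deposited values. A further 2 probes of Fip1l1 were not above background often enough to be tested.

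Hnrnpa2b1 encodes an abundant hnRNP that binds silencers in exons and takes part in sorting RNA in the cell. Probe A_52_P636482 lay at 0.10, 0.32 and 0.46 in the LGI mice and at -0.24, 0.03 and 0.22 in the HGI mice. Again the LGI median was higher than every HGI mouse, while LGI 5 and LGI 7 lay among them. The difference was -0.29 ± 0.07 (SE) and -0.24 without HGI 9 and HGI 10. Srsf11 encodes an SR protein that contacts factors of the 3' splice site. Its probe A_51_P149818 lay at -0.31, 0.05 and 0.33 in LGI and at -0.60, -0.29 and 0.07 in HGI, a difference of -0.28 ± 0.10 (SE), and HGI 9 and HGI 10 held its lowest values. Without them the difference was -0.20. The other probes of Srsf11 differed by -0.16 and -0.07, so all 3 pointed down.

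**Figure D3:**
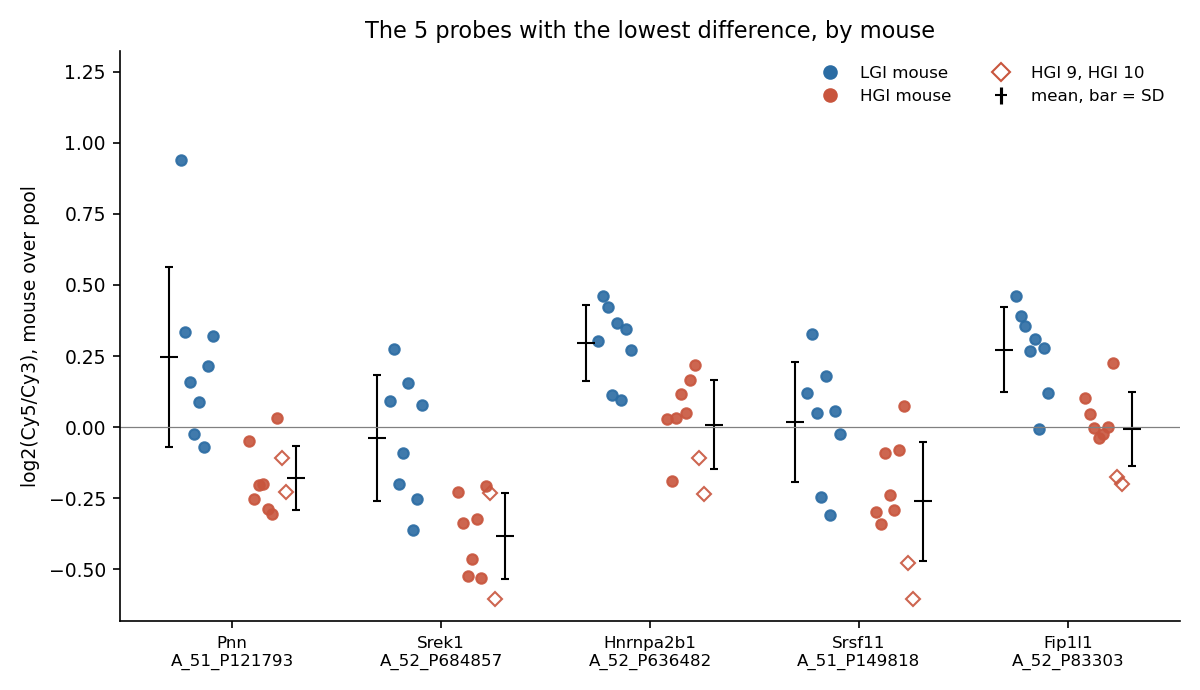
log2(Cy5/Cy3) of each mouse for the 5 probes with the lowest difference, with LGI and HGI mice in separate columns, open diamonds for HGI 9 and HGI 10, and the mean with its SD as a bar. LGI 1 stands at 0.94 in Pnn, above every other mouse, and in each probe at least 1 LGI mouse lies within the HGI range.

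The hnRNP genes were the largest family, with 45 probes of 21 genes. 31 of the probes (68.9%, against 49.1% of all tested probes) were lower in HGI and 7 of them (15.6%, against 4.02%) had an unadjusted p under 0.05, with a median difference of -0.04. Besides Hnrnpa2b1, these lower probes were 1 each of Hnrnpd (-0.24 ± 0.07 SE), which binds AU-rich elements and directs the decay of messages, Hnrnpa0 (-0.22), Hnrnpa3 (-0.21), Hnrnpr (-0.16), Hnrnpk (-0.16), which binds runs of C, and Hnrnpu (-0.15), a nuclear matrix protein. They are named here after their values were seen, each by its lowest probe. The other probes differed by 0.03 in Hnrnpa0, by -0.08, -0.04 and -0.01 in Hnrnpa3, and by -0.04 in Hnrnpr. Those of Hnrnpk differed by -0.06 and -0.08, and that of Hnrnpu by -0.07. The single Hnrnpd probe lay at -0.12, 0.08 and 0.25 in LGI and at -0.35, -0.14 and 0.06 in HGI. All 9 HGI mice were below the LGI median in Hnrnpd, and the difference was -0.23 without HGI 9 and HGI 10. All 4 probes of Hnrnpdl, the near relative of Hnrnpd, were lower, between -0.12 and -0.09.

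Hnrnpa1, the best-studied silencer-binding hnRNP, had probes on both sides of 0. Its 4 probes differed by 0.13, 0.07, -0.01 and -0.06. Probe A_51_P296940, the highest of the whole family, lay at -0.30, -0.05 and 0.20 in LGI and at -0.17, 0.12 and 0.26 in HGI, a difference of 0.13 ± 0.08 (SE) and 0.10 without HGI 9 and HGI 10, with strongly overlapping groups. The probes named for the pseudogenes Hnrnpa1l2-ps and Hnrnpa1l2-ps2 differed by 0.07 and -0.05. These are near copies of Hnrnpa1, so which transcript the probes report is uncertain. The single probe of Hnrnph2, which binds runs of G, differed by 0.10 ± 0.06 (SE), lying at -0.37, -0.14 and 0.00 in LGI and at -0.16, -0.06 and 0.14 in HGI, and by -0.02 in the authors' deposited values. A probe of Hnrnpul1 differed by 0.08 ± 0.07 (SE), with the other Hnrnpul1 probes at 0.08 and -0.02.

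SR proteins lay lower in 17 of 23 probes (73.9%) of 10 genes, 4 of them (17.4% of the probes) with an unadjusted p under 0.05, against 49.1% and 4.02% of all tested probes, and the median difference was -0.07. Srsf11 gave 2 of these probes. The others belong to Srsf1, the founding member of the family, at -0.22 ± 0.09 (SE), and to Srsf5 at -0.18 ± 0.08 (SE). This Srsf1 probe lay at -0.49, -0.08 and 0.09 in LGI and at -0.62, -0.41 and -0.03 in HGI. In it 7 of 9 HGI mice were below the LGI median. The other Srsf1 probe differed by -0.08. All 4 probes of Srsf2 were lower, from -0.12 to -0.02. Both probes of Srsf6 and the probe of Srsf9 were slightly higher, at 0.01, 0.04 and 0.03, and the Srsf6 probes were at -0.02 and -0.05 without HGI 9 and HGI 10.

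The subunits of SF3A and SF3B, which recognise the branch point within the U2 particle, showed the smallest median shift of the families. 10 of 14 probes of 9 genes were lower (71.4%, against 68.9% of the hnRNP probes and 49.1% of all tested probes). 0 of them had an unadjusted p under 0.05, where 4.02% of all tested probes were lower with one. The median difference of the 14 probes was -0.02. Sf3b3 had the lowest probe at -0.16 ± 0.09 (SE), whereas its other probes were at -0.07 and 0.00. Sf3a3, with 1 probe, differed by -0.14 ± 0.07 (SE). The probes of Sf3b1, the subunit that holds the branch-point adenosine, differed by -0.07 and -0.05. Probe A_52_P253665 of Sf3b4 was among the 5 highest at 0.08 ± 0.08 (SE) and was above background on 10 arrays, while the other Sf3b4 probe differed by -0.09.

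The genes that carried an older Sfrs name encode SR-related proteins outside the SR family. 9 of their 10 probes, from Clasrp, Scaf11, Scaf4, Sfswap and Sugp2, were lower, where 49.1% of all tested probes were. The median difference was -0.05. 1 of the 10 was lower with an unadjusted p under 0.05, where 4.02% of all tested probes were. All 4 probes of Sfswap, which regulates splicing of its own message, were lower, from -0.19 to -0.01, and the lowest had an unadjusted p under 0.05. Scaf4 was the exception at 0.04.

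Among the other genes named singly, Rbm39, a relative of the U2AF factors that recognise the 3' splice site, was lower in all 3 probes, at -0.13, -0.10 and -0.08, and at -0.19, -0.12 and -0.09 without HGI 9 and HGI 10. Its probe A_51_P296775 lay at 0.01, 0.29 and 0.41 in LGI and at 0.02, 0.09 and 0.36 in HGI, and HGI 9 and HGI 10 were the high HGI mice. In the authors' deposited values the probes A_52_P275324 and A_52_P444915 of Rbm39 were at 0.03 and 0.06. Tra2a and Tra2b, which bind GAA-rich exonic enhancers, were mixed. The probes of Tra2a differed by -0.14, -0.03 and 0.08. Those of Tra2b differed by -0.19 (-0.26 without HGI 9 and HGI 10) and 0.01, and the lower one lay at -0.36, 0.01 and 0.20 in LGI and at -0.71, -0.12 and 0.11 in HGI. Luc7l, a relative of the yeast U1 protein Luc7, differed by -0.16 in probe A_52_P311417, where LGI 1 stood at 0.58 above every other mouse, and by 0.08 in probe A_51_P489413. The latter reached 0.29 in HGI 9 and 0.41 in HGI 10, above every other mouse, and was at -0.04 without them. In the authors' deposited values both Luc7l probes turned, to 0.02 in A_52_P311417 and -0.06 in A_51_P489413.

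**Figure D4:**
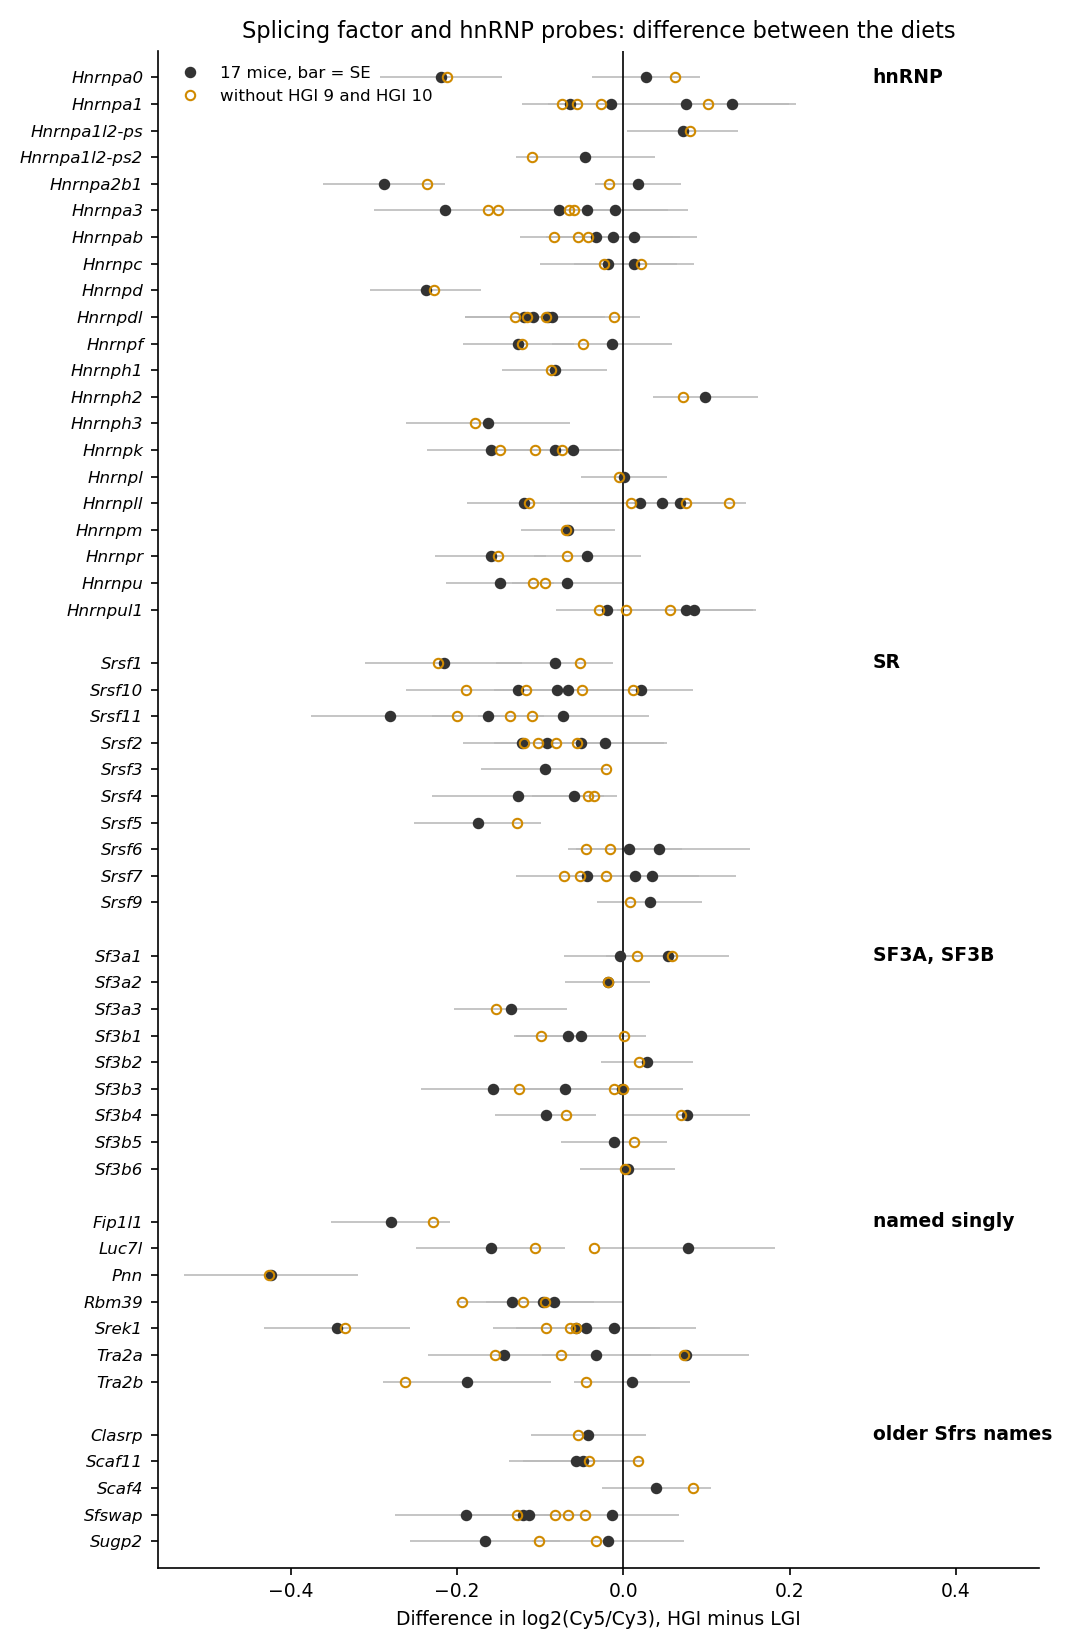
Difference in log2(Cy5/Cy3), HGI minus LGI, of all 108 tested probes by gene and family, with all 17 mice (filled circles, bar = SE) and without HGI 9 and HGI 10 (open circles). Pnn lies lowest at -0.42, and the probes of 14 genes fall on both sides of 0.

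Of the 32 genes of the family with several tested probes, 17 had all probes lower, 1 (Srsf6) had all higher and 14 were mixed. The mixed genes were 43.8% of them, against 47.1% of the 5412 such genes on the whole array. On the whole array 1476 of the 5412 had all probes lower and 1385 had all higher. Of the 20 genes with 1 tested probe, 13 were lower and 7 higher, where 49.1% of all tested probes were lower. To set probes of a gene against each other within the same mice, the log ratio of the brightest probe was subtracted from that of each further probe, for all 7395 such pairs on the array. 6 of the 56 pairs of the family had an unadjusted p under 0.05 in limma, where 6.76% of all pairs had one, and 0 pairs passed an adjusted p of 0.05, with a smallest adjusted p of 0.644. The 6 pairs belong to Hnrnpa2b1, Srek1, Hnrnpa0 and Hnrnpll. 4 of them set a further probe against the Hnrnpa2b1 or Srek1 probe for whose low value the gene was known, and 3 share the Srek1 probe. Among the other 52 pairs, 2 had an unadjusted p under 0.05.

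In Hnrnpa2b1 probe A_51_P419981 lay at 0.15, 0.23 and 0.31 in LGI and at 0.11, 0.25 and 0.42 in HGI. Its difference was 0.02 ± 0.05 (SE), so it lay 0.31 ± 0.10 (SE) above the brightest probe in the contrast of the diets, and 0.22 without HGI 9 and HGI 10. In Srek1 all 3 further probes lay above the brightest, by 0.30, 0.33 and 0.29, and by 0.28, 0.27 and 0.24 without those mice. In Hnrnpa0 probe A_51_P517423 differed by -0.22 ± 0.07 (SE) and probe A_52_P625431 by 0.03 ± 0.07 (SE), a gap of 0.25. The first lay at -0.14, -0.06 and 0.27 in LGI and at -0.42, -0.24 and 0.01 in HGI, and in the second the diets overlapped widely. Hnrnpll, a relative of Hnrnpl that is best known from lymphocytes, had 3 probes at 0.02 to 0.07 and 1 at -0.12. In A_52_P672627, the highest of them, LGI 6 stood at -0.32, below every other mouse. The low one, A_52_P512877, was above background on 8 arrays and so just met the limit for testing, and Sugp2 probe A_51_P147721, on 7 arrays, just missed it.

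**Figure D5:**
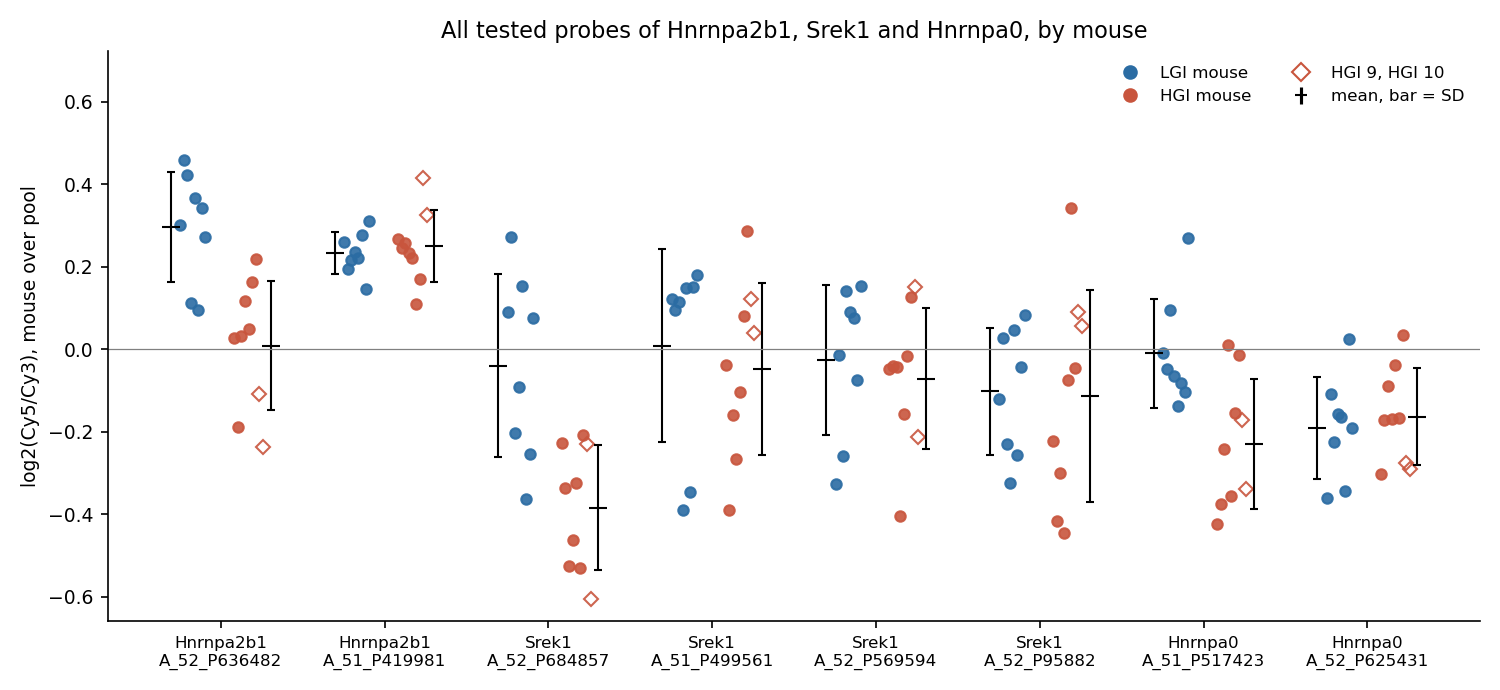
log2(Cy5/Cy3) of each mouse for all tested probes of Hnrnpa2b1, Srek1 and Hnrnpa0, with LGI and HGI mice in separate columns, open diamonds for HGI 9 and HGI 10, and the mean with its SD as a bar. The lowest probe of each gene differs by -0.29, -0.34 and -0.22 and the others by -0.06 to 0.03, and the HGI and LGI ranges overlap in every probe.

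Other genes of RNA processing, taken from 8 lists, leaned the same way. 191 of 294 probes of 137 genes (65.0%) were lower, against 49.1% of all tested probes, with a median difference of -0.04. 33 (11.2%) were lower with an unadjusted p under 0.05 and 6 higher with one, where 4.02% and 3.62% of all tested probes were. These shares of all tested probes are the background of each list. None passed an adjusted p of 0.05 in limma.

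Nuclear speckle proteins with arginine and serine repeats were lower in 36 of 49 probes, 10 with an unadjusted p under 0.05 and 1 higher with one. Thrap3, which is also a transcription coactivator, had all 3 probes lower, the lowest at -0.35 ± 0.10 (SE) and -0.31 without HGI 9 and HGI 10, and a probe of Nktr, a cyclophilin with such repeats, differed by -0.21 ± 0.07 (SE), with the other Nktr probes at 0.09 and 0.05. Other splicing regulators were lower in 55 of 77 probes, 11 with an unadjusted p under 0.05 and 0 higher with one. A probe of Rbm5 differed by -0.40 ± 0.14 (SE), or by -0.24 without HGI 9 and HGI 10.

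Genes of cleavage and polyadenylation, the process to which Fip1l1 belongs, were lower in 26 of 38 probes, 6 with an unadjusted p under 0.05 and 1 higher with one. 3 of 4 probes of Pabpn1, the nuclear poly(A)-binding protein, were lower, the lowest at -0.25 ± 0.07 (SE), and a probe of Cstf3 was higher at 0.20 ± 0.07 (SE) with the other Cstf3 probe lower. Exon junction and nonsense-mediated decay genes were lower in 22 of 30 probes, 1 with an unadjusted p under 0.05: Smg6, the endonuclease of that decay, was lower in all 4 probes, the lowest at -0.25 ± 0.08 (SE), and all 4 probes of Upf3b were lower too, from -0.16 to -0.05.

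Factors that recognise the 3' splice site were lower in 10 of 15 probes, 2 with an unadjusted p under 0.05, both of U2surp at -0.30 ± 0.12 (SE) and -0.14 ± 0.06 (SE). A probe of Sf1, the branch-point protein, differed by 0.18 ± 0.11 (SE), and its 4 probes were split evenly. U4/U6.U5 and catalytic proteins were lower in 24 of 44 probes, 3 with an unadjusted p under 0.05 and 2 higher with one. A probe of Prpf38b differed by -0.37 ± 0.10 (SE), or by -0.25 without HGI 9 and HGI 10, and the other Prpf38b probe by -0.04. U1, U2 and Sm core proteins were lower in 8 of 22 probes and higher in 14, 2 of these with an unadjusted p under 0.05. Their median difference was 0.03. A probe of Snrpf differed by 0.16 ± 0.06 (SE) and the other by 0.07, and the probe of Snrpg by 0.21 ± 0.10 (SE). Kinases of SR proteins were lower in 10 of 19, 0 of them with an unadjusted p under 0.05, with 3 of 4 probes of Srpk2 lower, the lowest at -0.16 ± 0.09 (SE), and with probes of Dyrk1a at -0.09, -0.04 and 0.09.

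Markers of the cell types in the depot differed beside these genes. All 12 adipocyte markers were above background. 16 of their 19 probes were lower in HGI, where 49.1% of all tested probes were. 2 of the 19 were lower with an unadjusted p under 0.05, where 4.02% of all tested probes were. Their median difference was -0.09 (-0.06 without HGI 9 and HGI 10). Their mean level ran from -0.25 to 0.10 in LGI and from -0.31 to 0.02 in HGI. Without HGI 9 and HGI 10 this level averaged -0.01 ± 0.12 (SD) in LGI and -0.03 ± 0.05 (SD) in HGI. Macrophage markers were higher in 12 of 15 probes, where 12985 of all 25518 tested probes were. 1 of the 15 was higher with an unadjusted p under 0.05, where 3.62% of all tested probes were. The median of these markers was 0.04, and 0.12 without HGI 9 and HGI 10. Their mean level ran from -0.13 to 0.10 in LGI and from -0.24 to 0.49 in HGI. Endothelial markers were lower in 5 of 9 probes and T and B cell markers in 2 of 9, where 49.1% of all tested probes were. Without HGI 9 and HGI 10, 2 of 9 probes were lower in each list, where 50% of all tested probes were. The endothelial median was -0.01, and 0.05 without these mice, which had the lowest endothelial levels of all mice (-0.29 and -0.25). The part of these cell types in the lower levels of the splicing factors was not tested. In whole tissue, fewer cells of a type and less RNA per cell cannot be told apart.

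The shift of the family was met in both parts of the order of scanning. In the first 8 arrays scanned (4 LGI, 4 HGI) and in the later 9 (4 LGI, 5 HGI), 76 of the 108 probes were lower each time, with medians of -0.05 and -0.06, where 48.9% and 48.3% of all tested probes were lower. Pnn differed by -0.33 and -0.51 in the earlier and later scans, Srek1 (A_52_P684857) by -0.36 and -0.32, Hnrnpa2b1 (A_52_P636482) by -0.30 and -0.28, Fip1l1 by -0.23 and -0.33, and Srsf11 (A_51_P149818) by -0.33 and -0.23. These probes were chosen by their HGI minus LGI differences on all 17 arrays, so their shared sign in both is no independent check. The family's names were chosen with the measured diet differences of Pnn, Srek1, Hnrnpa2b1 and Fip1l1 on the same 17 arrays in view. The counts and medians of the 108 probes in both parts are therefore a description and no independent check of the shift either. Between mice the log ratios of the family's probes had a median SD of 0.15, against 0.17 over all tested probes, which is larger than most of the differences described.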

How the data were processed

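The scanner files hold spot intensities in both dyes with quality flags, as Agilent Feature Extraction wrote them (version 9.1.3.1 per the file headers, 9.5.1.1 per the submitters' processing notes). The authors also deposited log2 values, with scale and centring not given in the sources used here, which served as an alternative. In limma 3.58.1 (R 4.3.3, with data.table, version 1.17.8), normexp with offset 50 and loess within arrays gave log2 ratios of Cy5 to Cy3. Controls and flagged spots were left out and spots of 1 probe averaged. Probes with Cy5 well above background on at least 8 arrays were fitted (lmFit, eBayes, no covariate) over all 17 arrays, with Benjamini-Hochberg adjustment over all 25518. The fit was tested on simulated data. Plots used Python 3.11.15 and matplotlib 3.10.9. RefSeq names (GRCm38.p6) were matched to 23374 probes through their accession, to 6733 through their symbol and to 2919 through a former symbol. A probe named Sfrs10 in the files counts under Tra2b. Probes have no coordinates here, since no build is named in the scanner files. Genes named are Pnn, Srek1, Hnrnpa2b1 and Fip1l1, the 5 lowest and 5 highest probes, the 4 genes with the smallest p for a pair of probes, the other genes the selection names singly, and 2 genes a list, some of which are not reported here. Others were named after their values were seen. The genes, the lists and these rules were chosen with earlier results of these data known. Arrays that the design text says were excluded in quality control were not analysed here.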

Additional observations from a re-analysis of the deposited data

Results flagged for a closer look

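Among 60 groups of values of the described probes, 3 held a mouse far from the others of its diet, where chance gives about 1 in 20. Pnn was 0.94 in LGI 1 and 0.33 in the next mouse, LGI 2. Luc7l probe A_52_P311417 was 0.58 in LGI 1, and LGI 2 came next at 0.11. Hnrnpll probe A_52_P672627 was -0.32 in LGI 6 and -0.12 in LGI 4, the mouse nearest to it.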

How the results depend on the processing

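Of the 108 probes, 73 to 85 were lower when each array was left out in turn, 10 to 18 with an unadjusted p under 0.05, and the median was -0.07 to -0.04 (73 lower and -0.04 without LGI 9, the array with high cilia markers). Over the other 21 settings the median stayed between -0.08 and -0.03, and 0 probes of the family passed an adjusted p in any setting. The count of lower probes with an unadjusted p under 0.05 was 7 with median centring, 23 with Cy5 intensities alone, 7 in the later 9 scans, and 9 without HGI 9, HGI 10 and LGI 9. With 52 genes in place of probes, 38 were lower with the brightest probe and 39 with the mean over probes, and 9 had an unadjusted p under 0.05 either way. For these counts the shares over all probes or genes were not taken under the same setting, so they have no background. The count of higher probes with an unadjusted p under 0.05 was 1 in the authors' values, 1 with the replicate block on 14 arrays, 1 on the same 14 arrays unpaired, and 0 to 1 with an array left out. Over all probes, 1 passed an adjusted p with Cy5 intensities alone, 1 with array weights, and 0 to 4 with an array left out (4 without LGI 7). Replicate numbers shared by the diets are not shown to pair mice: 3 of 7 pairs correlated above 0.1 and 3 LGI arrays were most like their own number. The causes were not tested. Spots well above background were 54.2% to 66.7% of an array, which limits dim probes such as those of Srsf12 and Hnrnpul2.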
